A study of Mus musculus with 33 samples.

Results

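The cytosolic sulfotransferases (Sult genes) and the UDP-glucuronosyltransferases (Ugt genes) of mouse liver were examined across 2 genotypes and 2 diets. Members were the rows of the gene count table whose symbol begins with Sult and a number, or with Ugt1, Ugt2 or Ugt3 and the letter a or b, with at least 10 counts over the 33 libraries. There were 33 such genes of 19169 in the table, 16 Sult and 17 Ugt, and a further row, Ugt2a2, held 4 counts and was left out. The tests covered 31 of the 33 members, because Sult2b1 (32 counts in all) and Sult4a1 (25 counts) did not pass the filter on low counts.

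Polyadenylated RNA of whole liver was sequenced from knock-in (KI) mice, which carry the tamoxifen-inducible mutant allele Nlrp3A350V/+CreT, and from wild-type (WT) mice. The mice ate control chow with placebo, or a diet holding GS-444217 for 6 weeks; this compound selectively blocks ASK1, a stress-activated kinase, and is written ASK1i here. There were 10 KI ASK1i libraries (5 male, 5 female), 5 KI control (4 male, 1 female), 8 WT ASK1i (4 male, 4 female) and 10 WT control (3 male, 7 female). The promoter that drives the Cre, the tamoxifen dosing and the age of the mice could not be taken from the labels, nor whether WT mice carried the Cre or received tamoxifen. Nlrp3, the mutated inflammasome sensor, averaged 7.90 ± 2.66 CPM (reads scaled to library size; SD, n = 10) in KI ASK1i and 11.1 ± 3.45 CPM (n = 5) in KI control, against 2.73 ± 0.492 CPM (n = 8) in WT ASK1i and 3.03 ± 1.05 CPM (n = 10) in WT control. Map3k5, which encodes ASK1, averaged 25.2 ± 5.22 CPM in KI ASK1i and 21.8 ± 2.80 CPM in KI control, against 37.9 ± 9.72 CPM in WT ASK1i and 38.0 ± 10.4 CPM in WT control.

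Sulfotransferases move a sulfonate group from the donor PAPS onto phenols, steroids, bile acids and amines, and glucuronosyltransferases move glucuronic acid from UDP-glucuronic acid onto bilirubin, steroids and drugs. Both make small lipophilic molecules soluble enough for export into bile or blood, and hepatocytes are their main site. The Ugt1a genes share 1 locus: each has its own promoter and first exon, spliced to a common set of downstream exons, whereas each Ugt2b and Sult gene has its own promoter. In mice, several Sult2a genes and Sult3a1 are known as female-predominant in liver, and several Ugt2b genes as male-predominant.

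Total counts ran from 28099685 to 40008114 per library. Liver identity was clear in all 4 groups: none of the 12 hepatocyte markers in the table was at 0 in any library. Their summed level ran from 56413 to 134751 CPM in KI ASK1i and from 56787 to 81376 CPM in KI control, against 126842 to 167557 CPM in WT ASK1i and 129642 to 156920 CPM in WT control. The 9 neutrophil markers summed to 6.03 to 4828 CPM in KI ASK1i and 654 to 3700 CPM in KI control, against 2.06 to 6.39 CPM in WT ASK1i and 3.66 to 17.0 CPM in WT control, and Camp and Mpo were at 0 in at least 1 WT library on each diet, as Ngp was on the ASK1i diet. The 9 macrophage markers summed to 542 to 2692 CPM in KI ASK1i and 2014 to 2537 CPM in KI control, against 421 to 584 CPM in WT ASK1i and 349 to 889 CPM in WT control. The female library KI ASK1i replicate 5 stood apart from its group: it lay inside the WT ASK1i range for 20 of the 31 members and inside the range of the other KI ASK1i libraries for 8, of which 3 lay in both. Its Nlrp3 level was 2.10 CPM, against 5.51 to 11.0 CPM in the other 9 KI ASK1i libraries, a level that does not test for the point-mutant allele itself. On the first principal component of all tested genes it lay at -41.6, inside the WT ASK1i range of -51.7 to -37.2, while the other KI ASK1i libraries lay at 37.4 to 73.5. It holds the extremes of 6.03 CPM of neutrophil, 542 CPM of macrophage and 134751 CPM of hepatocyte markers just given for KI ASK1i. The library labelled KI ASK1i replicate 5 thus went against its genotype label in these measures, and the main results that use it are given with and without it.

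Many members could not be counted cleanly one by one. The 7 Ugt1a rows all end at the shared last exon (mm10 chromosome 1, base 88220002), and 40.9% (Ugt1a7c) to 100% (Ugt1a6a) of the 50-base windows of their transcripts also occurred in another gene. The row named Ugt1a2 also holds the transcript of Ugt1a6b, and Sult2a2 and Sult2a4 carry the same Entrez number. In the Sult2a rows, a gene cluster on chromosome 7, the shared windows ran from 0% (Sult2a7), 7.35% (Sult2a6) and 8.36% (Sult2a3) to 62.1% (Sult2a2). Sult1e1, Sult1b1, Sult1d1 and Ugt2b1 shared none, and their counts were exactly whole in all 33 libraries.

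The promoters of 6 genes on which the results below turn are shown first, so that the Ugt1a genes that rose and fell can be read side by side. Each runs from 250 bases before to 50 bases after the gene start, 5′ to 3′, from RefSeq on GRCm38.p6 (the same assembly as mm10). Capitals mark matches, on either strand, to 6 short motifs: CAAAGTCC (HNF4), TTGCNNAA (C/EBP), TGANTCA (AP-1), TTCNNNGAA (STAT), GCGTG (core of the AHR site) and TGACNNNGC (antioxidant response element).
Sult1e1 (chr5:87591562-87591861, minus strand): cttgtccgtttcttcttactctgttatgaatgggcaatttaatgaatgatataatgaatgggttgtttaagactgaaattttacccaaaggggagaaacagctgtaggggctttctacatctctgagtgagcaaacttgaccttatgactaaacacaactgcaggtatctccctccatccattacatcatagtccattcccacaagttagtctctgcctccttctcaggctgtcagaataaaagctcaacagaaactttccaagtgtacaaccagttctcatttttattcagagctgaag
Ugt1a7c (chr1:88094751-88095050, plus strand): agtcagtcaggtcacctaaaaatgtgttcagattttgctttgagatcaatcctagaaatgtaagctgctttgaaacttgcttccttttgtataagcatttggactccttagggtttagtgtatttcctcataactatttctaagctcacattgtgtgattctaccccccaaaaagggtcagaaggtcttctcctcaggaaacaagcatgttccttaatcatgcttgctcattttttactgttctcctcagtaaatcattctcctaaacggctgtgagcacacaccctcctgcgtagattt
Ugt1a5 (chr1:88165762-88166061, plus strand): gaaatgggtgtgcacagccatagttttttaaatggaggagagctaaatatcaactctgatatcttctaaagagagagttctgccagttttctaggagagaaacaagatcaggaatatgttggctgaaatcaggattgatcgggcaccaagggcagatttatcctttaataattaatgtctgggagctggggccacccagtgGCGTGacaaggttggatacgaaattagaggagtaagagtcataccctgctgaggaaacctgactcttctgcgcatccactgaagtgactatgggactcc
Ugt1a1 (chr1:88211709-88212008, plus strand): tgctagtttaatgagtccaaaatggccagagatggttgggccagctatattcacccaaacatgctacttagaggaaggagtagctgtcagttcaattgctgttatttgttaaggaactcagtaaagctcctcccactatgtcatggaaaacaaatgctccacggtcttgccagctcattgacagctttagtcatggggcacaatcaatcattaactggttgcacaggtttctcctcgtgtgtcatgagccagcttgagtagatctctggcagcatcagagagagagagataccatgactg
Ugt2a3 (chr5:87337146-87337445, minus strand): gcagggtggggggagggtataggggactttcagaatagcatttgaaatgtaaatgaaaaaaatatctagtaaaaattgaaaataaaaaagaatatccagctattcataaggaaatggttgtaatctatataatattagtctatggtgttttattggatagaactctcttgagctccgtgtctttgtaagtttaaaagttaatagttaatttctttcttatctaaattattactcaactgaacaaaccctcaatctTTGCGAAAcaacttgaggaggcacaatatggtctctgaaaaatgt
Ugt2b1 (chr5:86926454-86926753, minus strand): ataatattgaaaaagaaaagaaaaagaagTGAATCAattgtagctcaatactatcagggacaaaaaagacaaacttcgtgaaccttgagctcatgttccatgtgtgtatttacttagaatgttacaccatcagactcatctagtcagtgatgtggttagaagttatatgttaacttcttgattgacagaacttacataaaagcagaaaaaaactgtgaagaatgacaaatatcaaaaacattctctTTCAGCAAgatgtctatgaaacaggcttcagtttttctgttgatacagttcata

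Sult1e1 and Ugt1a7c, which rose in KI liver, held no match to any of the 6 motifs, and nor did Ugt1a1. For Sult1e1 and Ugt1a7c, unlike the others shown, the gene start used was not marked as matching a transcript start. Ugt1a5, which was called higher on the inhibitor in WT and not in KI, held an AHR core 49 bases before its start, and Ugt2a3 a C/EBP match 5 bases after its start. Ugt2b1 held a C/EBP match 4 bases before its start and an AP-1 match 221 bases before. Of the 30 promoters found for 28 members, 23.3% held the C/EBP motif, against 10.8% of all 32851 promoters in the table. The other shares were, for AP-1, 23.3% against 7.81%, for the AHR core 16.7% against 32.4%, for STAT 6.67% against 8.3%, for HNF4 3.33% against 1.42%, and for the antioxidant response element 0 of 30 against 12.4%. AP-1 and STAT matches overlapped in Ugt1a6a. Each 23.3% stands for 7 promoters, and some are near copies of each other from 1 gene cluster. Such are Ugt2b37 and Ugt2b38 for AP-1, and Sult2a3 and Sult2a4 for C/EBP. The promoters are therefore not independent, and enrichment was not tested. These are letter matches in windows of equal length, not measured binding.

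Sult1e1, the estrogen sulfotransferase, rose more than any other member in KI liver (Entrez gene 20860, mm10 chromosome 5, 87575968 to 87591611, minus strand). In the 10 KI ASK1i libraries it stood at 30.4 CPM in replicate 5 and at 233, 272, 276, 295, 330, 344, 366, 375 and 422 CPM in the others, and in the 5 KI control libraries at 139, 168, 223, 252 and 271 CPM. In the 8 WT ASK1i libraries it stood at 1.29, 2.61, 4.08, 8.57, 12.0, 16.8, 22.3 and 37.6 CPM, and in the 10 WT control libraries at 0.276, 0.317, 0.371, 0.384, 0.538, 0.572, 0.573, 0.693, 1.16 and 3.22 CPM. All 5 KI control libraries thus lay above all 10 WT control libraries, and on the inhibitor 9 of 10 KI libraries exceeded the highest WT value. The group mean was 260-fold higher in KI control than in WT control, and the fitted log2 fold change, with sex and title set in the model, was 8.10 (SE 0.67; edgeR quasi-likelihood test, adjusted p = 1.70e-09), the 20th highest of 14934 genes. On the ASK1i diet KI was 22.4-fold higher than WT, with a log2 fold change of 4.47 (SE 0.57, adjusted p = 1.24e-07), and 4.64 (adjusted p = 4.97e-09) without replicate 5.

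Per kilobase of transcript, Sult1e1 became one of the most abundant members in KI liver. At 237 CPM per kilobase in KI ASK1i and 170 in KI control it ranked the third of the 33 members in both, behind Sult1a1 (330 and 326) and Ugt1a1 (284 and 196). It ranked 23rd in WT ASK1i at 10.6 and 30th in WT control at 0.652. The rise was seen in both sexes: among male libraries alone the log2 fold change on control chow was 8.93 (adjusted p = 5.15e-06) and among female libraries alone, with 1 KI control female, it was 7.49 (adjusted p = 0.000577).

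**Figure D1:**
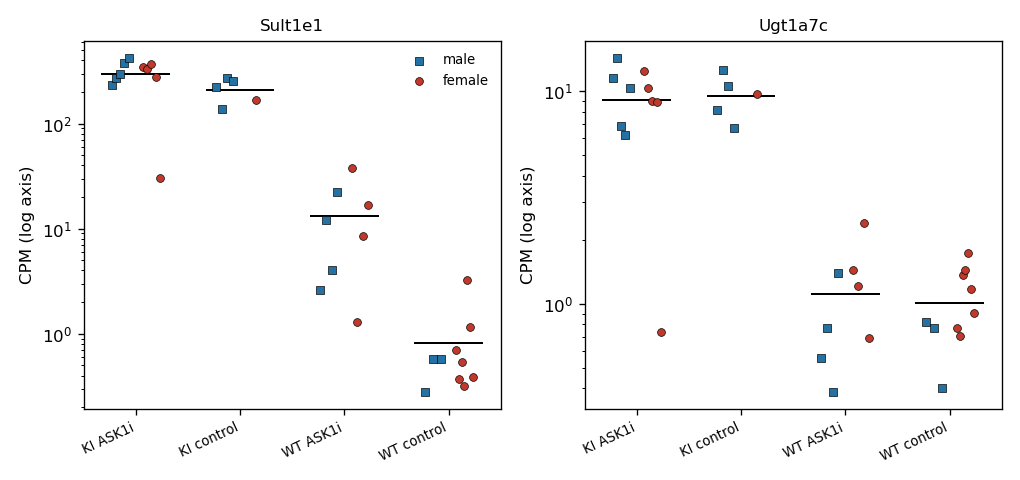
CPM (log axis) of Sult1e1 and Ugt1a7c in each library of the 4 groups, with males as squares to the left of females as circles, and a line at each group mean. KI libraries sit above WT libraries for both genes except KI ASK1i replicate 5, a female, at 30.4 CPM of Sult1e1 and 0.735 CPM of Ugt1a7c.

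On control chow the other members mostly fell in KI liver, and the glucuronosyltransferases fell almost as a whole. Of the 31 members tested, 24 were called (edgeR quasi-likelihood test, Benjamini-Hochberg adjusted p under 0.05 over 14934 genes), 2 higher and 22 lower. Over all genes 56.7% were called, 27.8% higher and 28.9% lower, so the share of called members (77.4%) and above all the share lower stood over a high background. The median log2 fold change of the 31 members was -0.90, and that of all genes was -0.03. All 17 Ugt genes were called, 16 of them lower, against 7 of 14 Sult genes, 6 of them lower. For 17 of the 31 members the 5 KI control and 10 WT control libraries did not overlap, 2 of them with KI above and 15 with KI below. Non-overlap was not counted over all genes, so this count cannot be read as particular to the members. In bulk liver, fewer hepatocytes and less RNA per hepatocyte cannot be told apart; beside these counts, 9 of 12 hepatocyte markers were called lower and 1 higher (median log2 fold change -0.50), all 9 neutrophil markers higher (median 7.76), all 9 macrophage markers higher (median 1.87) and 8 of 10 stellate cell and fibroblast markers higher (median 0.78), with 4 of 7 endothelial markers higher and 1 lower, and their part in the members' changes was not tested.

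Within the Ugt1a locus, 1 gene moved against the other 6. Ugt1a7c, whose first exon starts at base 88095001 of chromosome 1, stood at 6.69, 8.16, 9.74, 10.6 and 12.5 CPM in KI control, against 0.401 to 1.73 CPM (median 0.863) in WT control. The groups did not overlap, and the log2 fold change was 3.41 (SE 0.41, adjusted p = 6.95e-08). Ugt1a10, the first gene of the locus among those measured, stood at 0.631, 0.774, 0.847, 1.14 and 1.22 CPM in KI control, against 2.04 to 5.34 CPM (median 3.73) in WT control. It fell by 2.07 (SE 0.34, adjusted p = 7.31e-06), with every KI control library under every WT control library. Ugt1a1, the bilirubin-conjugating enzyme and the most abundant member per kilobase in WT liver, averaged 436 ± 127 CPM in KI control (SD, n = 5) and 1027 ± 136 CPM in WT control (n = 10), and fell by 1.15 (SE 0.20, adjusted p = 1.40e-05). The other 4 fell by 0.68 (Ugt1a2), 0.84 (Ugt1a6a, a phenol-conjugating enzyme), 1.47 (Ugt1a5) and 1.85 (Ugt1a9) on the log2 scale.

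All 8 Ugt2 genes fell in KI control, several of them steeply. Ugt2b37 stood at 0.225, 0.229, 0.265, 0.431 and 0.725 CPM in KI control, against 1.34 to 11.7 CPM (median 4.58) in WT control. Ugt2b1 stood at 27.4, 28.3, 37.5, 37.6 and 41.2 CPM, against 172 to 486 CPM (median 237), and Ugt2a3 at 56.6, 68.7, 70.2, 72.5 and 76.7 CPM, against 333 to 564 CPM (median 395). In none of these genes did the 2 groups overlap. The log2 fold changes were -3.72 (SE 0.66, adjusted p = 2.68e-05) for Ugt2b37, -3.17 (SE 0.52, adjusted p = 8.62e-06) for Ugt2b1 and -2.62 (SE 0.42, adjusted p = 5.87e-06) for Ugt2a3. Ugt2b5, the most abundant Ugt2 gene per kilobase in WT liver, fell by 1.8 (SE 0.29, adjusted p = 4.80e-06), and Ugt2b34, Ugt2b35 and Ugt2b36 fell by 0.90, 0.63 and 0.90. The call for Ugt2b35 was lost without the only KI control female, replicate 1, at an adjusted p of 0.0961. Ugt2b38 had the largest fitted fall, 4.91 (SE 1.04, adjusted p = 0.000216), from few counts: it reached at most 0.219 CPM in KI control and 11.4 CPM in WT control. The pair Ugt3a1 and Ugt3a2, whose human counterparts use sugar donors other than glucuronic acid, fell by 1.41 (SE 0.26) and 0.51 (SE 0.12).

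Among the sulfotransferases the called falls lay mostly outside the Sult2a cluster. Sult1c2 stood at 0.325, 0.442, 0.487, 0.807 and 1.04 CPM in KI control, against 1.98 to 6.55 CPM (median 3.73) in WT control, with no overlap. Sult3a1, an amine sulfotransferase in mice, stood at 0.874, 2.38, 3.71, 6.15 and 22.9 CPM, against 2.97 to 138 CPM (median 98). The highest KI value was the only female of that group, and the lowest WT value was male. Sult1c2 fell by 2.74 (SE 0.47, adjusted p = 1.58e-05) and Sult3a1 by 3.06 (SE 0.63, adjusted p = 0.000157). Sult1b1, which acts on thyroid hormones, fell by 1.64 (SE 0.20), Sult5a1 by 1.93 (SE 0.33), Sult2a7 by 2.50 (SE 0.81, adjusted p = 0.0102) and Sult1d1, a catecholamine sulfotransferase in mice, by 0.68 (SE 0.26, adjusted p = 0.0290). The Sult1d1 call was lost when any 1 of 4 libraries was left out (KI control replicates 1, 2 and 4 and WT control replicate 2P; adjusted p up to 0.129) and with total-count scaling.

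Sult1a1, the main phenol sulfotransferase, stood at 340, 432, 441, 492 and 527 CPM in KI control, against 315 to 434 CPM (median 399) in WT control. Its log2 fold change was 0.22 (SE 0.14, adjusted p = 0.192), and with total-count scaling it was called higher, at 0.345. The 6 genes Sult2a1 to Sult2a6, which sulfonate bile acids and hydroxysteroids, had log2 fold changes from -0.30 to 0.63 and adjusted p of 0.577 or more. Summed over the cluster, KI control males averaged 222 CPM and WT control males 64.3 CPM. The 1 KI control female had 251 CPM, and WT control females averaged 727 CPM. This fit held 1 sex term for both genotypes, so it does not show such opposite values. Behind the Sult2a1 value of 0.63 (SE 0.96) lay opposite values in the sexes: among males alone it was 3.28 (adjusted p = 0.134), and among females alone -1.93 (adjusted p = 0.0568), neither called. KI control and WT control libraries never shared an L code, a label in the titles whose meaning is not stated, so no value within a code can be had. With the L code as a term 19 members were called, 2 higher and 17 lower. Over all genes the calls fell too, from 8466 in the main fit to 5103.

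**Figure D2:**
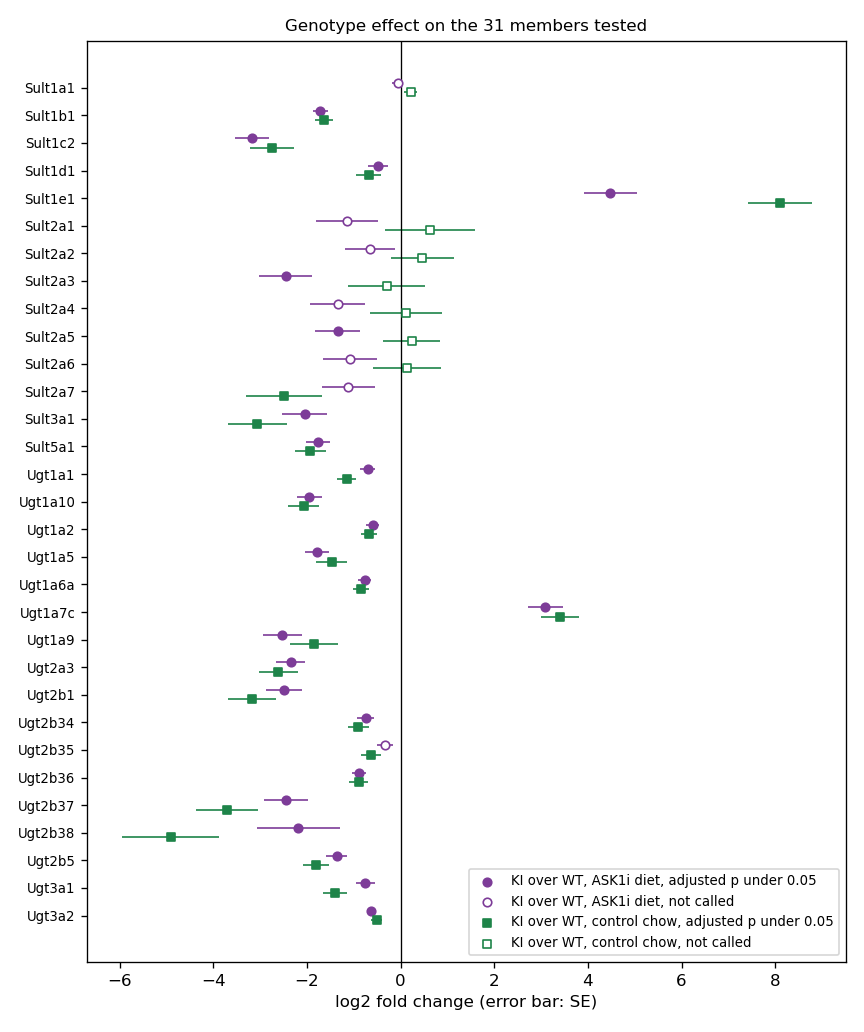
Log2 fold change (x axis, with SE bars) of KI over WT for the 31 members tested, on the ASK1i diet (circles) and on control chow (squares), filled where the edgeR adjusted p was under 0.05. All but Sult1e1 and Ugt1a7c of the filled points lie left of 0.

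Sult1e1 and Ugt1a7c were also the 2 members that rose when both genotypes ate the ASK1i diet. Of 31 members 24 were called, 2 higher and 22 lower, where 59.1% of all genes were called, 30.3% higher and 28.8% lower. The median log2 fold change of the members was -1.14, against 0.01 for all genes. Without KI ASK1i replicate 5 there were 26 calls, Sult2a7 (-2.16, adjusted p = 0.000402) and Ugt2b35 (-0.51, adjusted p = 0.00317) being added. In the 2 L codes that held libraries of both groups, L1 with 4 KI and 2 WT and L7 with 1 KI and 2 WT, the means of all 24 called members differed in the direction of the fitted change. These libraries also entered the fit that gave the calls, and the sexes were unequal between the genotypes in both codes. The agreement is therefore not a separate test. Beside these counts, 7 of 12 hepatocyte markers were called lower and 2 higher, and all 9 neutrophil and all 9 macrophage markers higher.

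Ugt1a7c stood at 6.22 to 14.3 CPM in 9 KI ASK1i libraries and at 0.735 CPM in replicate 5, against 0.384 to 2.39 CPM (median 0.990) in WT ASK1i. Replicate 5 lay inside the WT range and the other 9 above it. The gene rose by 3.09 (SE 0.37, adjusted p = 5.19e-08), and by 3.27 without replicate 5. Sult1c2 had 0.184 to 2.41 CPM (median 0.379) in KI ASK1i and 3.33 to 8.37 CPM (median 4.95) in WT ASK1i, the highest KI value being replicate 5. It fell by 3.18 (SE 0.36, adjusted p = 2.28e-08), and fell by 3.82 without replicate 5, with no overlap between the groups. Ugt2a3 had 22.5 to 272 CPM (median 52.0) in KI ASK1i and 331 to 453 CPM (median 381) in WT ASK1i, and fell by 2.35 (SE 0.32), and fell by 2.88 without replicate 5. Ugt2b1 had 9.31 to 168 CPM (median 31.7) and 181 to 494 CPM (median 251), and fell by 2.48 (SE 0.39, adjusted p = 2.97e-06), and fell by 3.08 without it. Neither of these 2 genes overlapped between the genotypes, and nor did Sult1b1, Ugt1a5 and Ugt1a10, which fell by 1.71, 1.79 and 1.95, and by 1.75, 2.01 and 2.01 without replicate 5.

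Ugt1a9, a phenol-conjugating enzyme, had 7.24 to 172 CPM (median 42.0) in KI ASK1i and 134 to 442 CPM (median 321) in WT ASK1i, and fell by 2.53 (SE 0.41, adjusted p = 6.31e-06), and fell by 2.99 without replicate 5. Its only KI library inside the WT range was replicate 5. Ugt2b37 had 0.0308 to 2.62 CPM (median 0.431) and 1.42 to 5.51 CPM (median 3.02), and fell by 2.45 (SE 0.48, adjusted p = 6.99e-05), and fell by 3.09 without replicate 5. Sult2a3 had 0.980 to 28.9 CPM (median 3.46) and 0.309 to 86.8 CPM (median 32.9), overlapping widely, and fell by 2.45 (SE 0.57, adjusted p = 0.000485), and fell by 2.74 without replicate 5. Sult2a5 also fell, by 1.34 (SE 0.48, adjusted p = 0.0172), a call lost without WT ASK1i replicate 7. Sult2a1, 2a2, 2a4, 2a6 and 2a7 had log2 fold changes from -1.34 to -0.65 and were not called. The call for Sult1d1 (-0.48, SE 0.21, adjusted p = 0.0484) ended in 27 of 33 fits that left out 1 library, and that for Ugt2b38 (-2.18, SE 0.89, adjusted p = 0.0352) in 8.

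The remaining members called on the ASK1i diet all fell, and 22 members were called on both diets. Genes called on both diets were not counted over all genes, so this count cannot be read as particular to the members. On the ASK1i diet Sult3a1 fell by 2.05, Sult5a1 by 1.77, Ugt1a1 by 0.70, Ugt1a2 by 0.60, Ugt1a6a by 0.77, Ugt2b34 by 0.74, Ugt2b36 by 0.89, Ugt2b5 by 1.37, Ugt3a1 by 0.75 and Ugt3a2 by 0.62, with adjusted p of at most 0.00226. Sult1a1 had a log2 fold change of -0.06 (SE 0.12, adjusted p = 0.672). Summed over the 8 Ugt2 genes, KI ASK1i averaged 1069 ± 500 CPM (SD, n = 10) and KI control 859 ± 148 CPM (n = 5), against 2491 ± 472 CPM in WT ASK1i (n = 8) and 2285 ± 548 CPM in WT control (n = 10). Without replicate 5, at 2347 CPM, KI ASK1i averaged 927 ± 232 CPM (n = 9). The sum over the 7 Ugt1a genes averaged 953 ± 337 and 716 ± 113 CPM in KI ASK1i and KI control, against 1846 ± 200 and 1618 ± 126 CPM in WT ASK1i and WT control, and KI ASK1i without replicate 5 averaged 857 ± 160 CPM. The 2 members that did not pass the filter were near 0 throughout: Sult2b1 summed to 8 and 7 counts in KI ASK1i and KI control and 6 and 11 in WT ASK1i and WT control, and Sult4a1, a brain-enriched sulfotransferase, to 6, 3, 8 and 8.

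**Figure D3:**
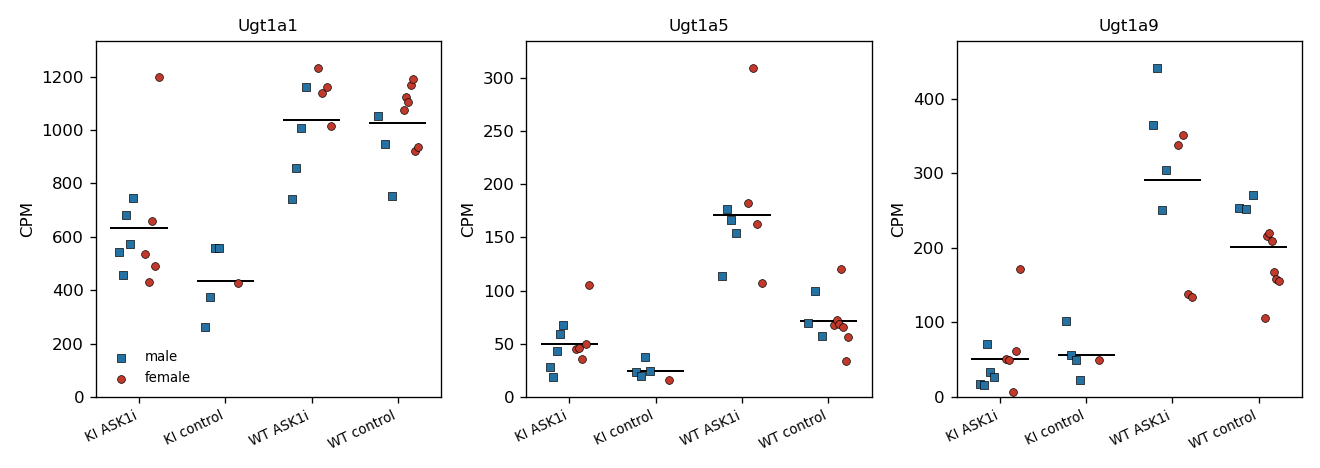
CPM of Ugt1a1, Ugt1a5 and Ugt1a9 in each library of the 4 groups (y axes from 0), with males as squares to the left of females as circles, and a line at each group mean. The 5 KI control libraries lie under the 10 WT control libraries for Ugt1a1 and Ugt1a9, and WT ASK1i libraries run higher than WT control for Ugt1a5, with 1 at 309 CPM.

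In WT liver Sult1e1 and 2 other members rose on the inhibitor. Here 3 of 31 members were called, all higher, where 1.4% of all 14934 genes were called, 1.13% higher. Sult1e1 was 16.2-fold higher by group means, with a log2 fold change of 4.00 (SE 0.57, adjusted p = 0.000177), the 2nd highest of all genes tested. All 8 WT ASK1i libraries lay above the WT control mean and 6 of them above every WT control library, the values given above. The 2 libraries that did not, at 1.29 and 2.61 CPM, were under only WT control replicate 5, at 3.22 CPM. Within 1 sex the call was lost, with log2 fold changes of 4.47 among males alone (adjusted p = 0.168) and 3.57 among females alone (adjusted p = 0.121).

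Ugt1a5 had 107 to 309 CPM (median 164) in WT ASK1i and 33.6 to 120 CPM (median 68.5) in WT control. The groups overlapped in part, with 6 of 8 WT ASK1i libraries above every WT control library, and the log2 fold change was 1.26 (SE 0.25, adjusted p = 0.00664). Sult2a3 had 0.309 to 86.8 CPM (median 32.9) in WT ASK1i and 0 to 30.5 CPM (median 10.4) in WT control, with a log2 fold change of 2.38 (SE 0.60, adjusted p = 0.0372). The Sult2a3 call ended in 12 of 33 fits that left out 1 library (adjusted p up to 0.114), and with the L code as a term Sult1e1 alone remained called, Ugt1a5 standing at 1.37 (adjusted p = 0.0701). Ugt2b38 had a log2 fold change of -2.39 (SE 0.71, adjusted p = 0.0976), called lower by limma-voom at -2.98. The other 27 members had log2 fold changes from -0.65 to 1.58.

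In KI liver no member was called between the diets by the edgeR test (0 of 31, against 0.0536% of all genes, 8 in number), by DESeq2 or by limma-voom. Unadjusted p was under 0.05 for 5 members, all with higher values on the inhibitor: Ugt1a5 (0.94, SE 0.32), Sult3a1 (1.44, SE 0.59), Ugt2b5 (0.58, SE 0.27), Ugt2b35 (0.54, SE 0.21) and Ugt1a1 (0.51, SE 0.19), with adjusted p from 0.42 to 0.4695. Replicate 5 was the highest KI ASK1i library for all of these but Sult3a1, and without it the values were 0.76 (Ugt1a5), 1.27 (Sult3a1), 0.28 (Ugt2b5), 0.40 (Ugt2b35) and 0.39 (Ugt1a1), with 0 calls and adjusted p of 0.464 or more. The median over the 31 members was 0.22, against 0.03 for all genes. Sult1e1 was at 0.37 (SE 0.56, adjusted p = 0.810), and at 0.50 without replicate 5. The difference between the inhibitor's effects in the 2 genotypes was called for 0 of 31 members and for 0% of all genes by edgeR, with 3 members at an unadjusted p under 0.05. Sult1e1 had the largest of these differences, -3.63 (SE 0.77, adjusted p = 0.209), the 4th of all genes by p. It was called by DESeq2 (-3.70, adjusted p = 0.00755) and, without WT control replicate 5, by edgeR (-4.15, adjusted p = 0.0490), and not by limma-voom (-3.35, adjusted p = 0.506). The comparisons of diet and genotype share their libraries, so the 3 Sult1e1 values are not independent of each other.

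**Figure D4:**
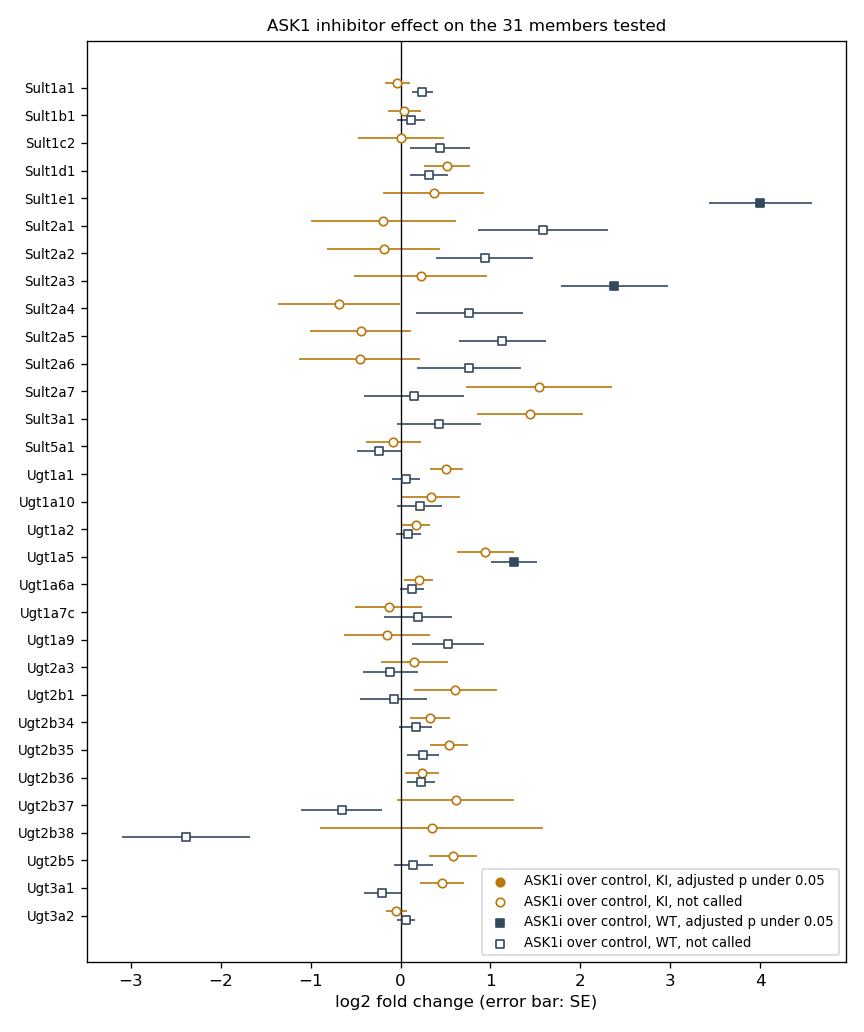
Log2 fold change (x axis, with SE bars) of the ASK1i diet over control chow for the 31 members tested, in KI (circles) and in WT (squares), filled where the edgeR adjusted p was under 0.05. Only the WT values of Sult1e1, Sult2a3 and Ugt1a5 are filled.

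Some sulfotransferases differed between the sexes. Between males and females in WT, 3 of 31 members were called, 1 higher and 2 lower in males, where 1.85% of all genes were called, 0.951% higher and 0.904% lower, and 12 members had an unadjusted p under 0.05. Sult2a1 had 0.370, 9.19 and 26.4 CPM in WT control males and 8.19, 58.1, 294 and 394 CPM in WT ASK1i males, against 278 to 584 CPM in WT control females and 538 to 823 CPM in WT ASK1i females. On neither diet did WT males and females overlap. The log2 fold change was -3.25 (SE 0.82, adjusted p = 0.0349) for Sult2a1 and -3.40 (SE 0.67, adjusted p = 0.00612) for Sult2a3. Sult2a3 had 0, 0.307 and 1.40 CPM in WT control males, against 6.88 to 30.5 CPM in WT control females. Ugt2b38 was the member higher in males, by 2.54 (SE 0.64, adjusted p = 0.0349), with 2.58, 8.04 and 11.4 CPM in WT control males against 0 to 1.82 CPM in WT control females. The 8.04 and 11.4 CPM came from WT control replicates 1P and 2P, whose titles carry a P. All WT control females had numbered titles without a P. Within WT control, sex and title set were therefore largely mixed, for the Sult2a genes too. On the inhibitor the Ugt2b38 values ran from 0 to 1.52 CPM in WT males and from 0.0414 to 0.294 CPM in WT females and overlapped. Leaving out 1 library ended the Sult2a1 call in 6 of 33 fits, the Ugt2b38 call in 8 and the Sult2a3 call in 0. All 3 calls were lost with a replicate block (adjusted p = 0.121 for Sult2a1, 0.0674 for Sult2a3 and 0.149 for Ugt2b38) and among numbered titles alone. Among ASK1i libraries alone Sult2a1 and Sult2a3 were not called and Ugt2b38 did not pass the filter. With the L code as a term Sult2a3 was the 1 left (-3.60, adjusted p = 0.0299).

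The whole Sult2a cluster leaned the same way in WT: the log2 fold changes of its 7 genes, male over female, ran from -3.40 to -0.23, and 6 had an unadjusted p under 0.05. Summed over the cluster, WT control males averaged 64.3 ± 62.3 CPM (SD, n = 3) and WT control females 727 ± 127 CPM (n = 7), while KI control males averaged 222 ± 71.1 CPM (n = 4) beside 251 CPM in the single KI control female. KI ASK1i males averaged 218 ± 187 CPM (n = 5) and KI ASK1i females 508 ± 448 CPM (n = 5), or 310 ± 74.4 CPM (n = 4) without replicate 5. That library had 710 CPM of Sult2a1 and 539 CPM of Sult2a2 but 0.191 CPM of Sult2a4 and 0.122 CPM of Sult2a6.

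Within KI the sex difference was called for 1 of 31 members, where 0.187% of all genes were called, 0.0737% higher and 0.114% lower. Sult3a1 had 0.874, 2.38, 3.71 and 6.15 CPM in KI control males and 4.72 to 12.6 CPM in KI ASK1i males, against 22.9 CPM in the KI control female and 9.30 to 79.7 CPM in KI ASK1i females. The log2 fold change, male over female, was -2.61 (SE 0.49, adjusted p = 0.0101). The call was lost without the KI control female (adjusted p = 0.104), among ASK1i libraries alone and by limma-voom. No sex difference was shown to differ between the genotypes: 0 of 31 members were called by edgeR, DESeq2 or limma-voom (0.0067% of all genes by edgeR), 6 had an unadjusted p under 0.05, and Sult2a1 was at 1.79 (SE 1.12, adjusted p = 0.676). Sult1e1 did not differ detectably by sex, at 0.41 (SE 0.55) in KI and -0.71 (SE 0.57) in WT.

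**Figure D5:**
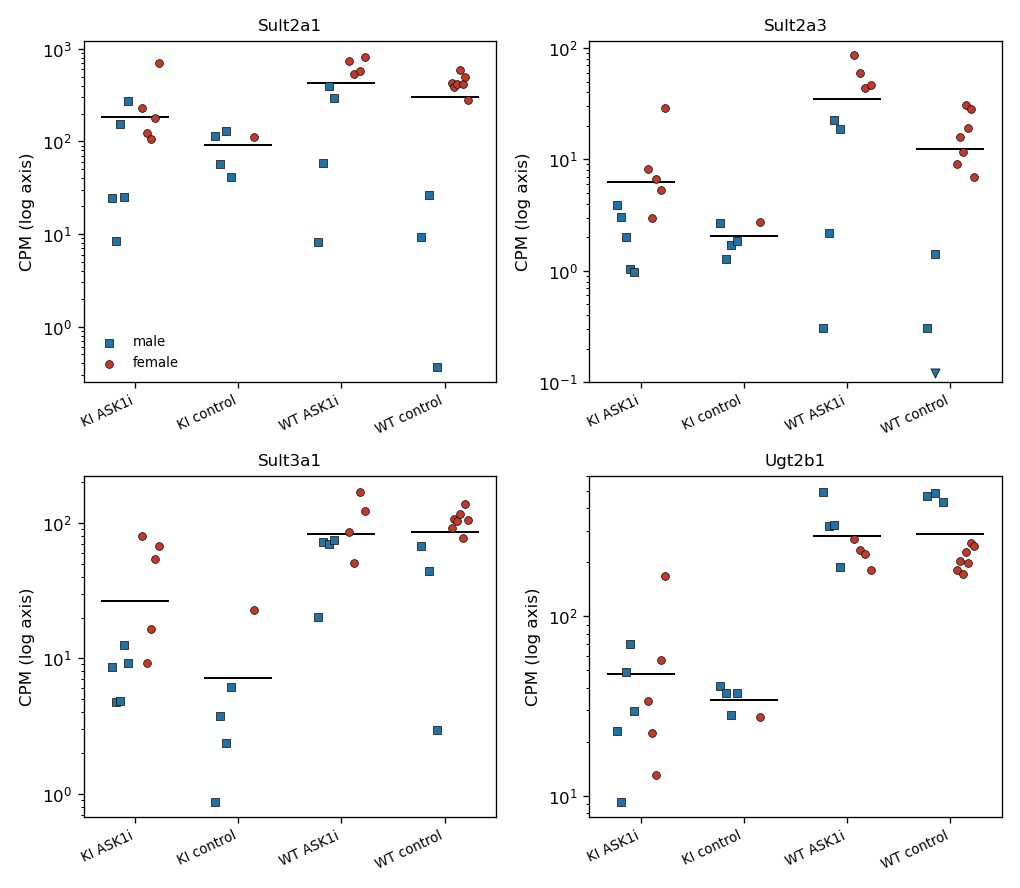
CPM (log axes) of Sult2a1, Sult2a3, Sult3a1 and Ugt2b1 in each library of the 4 groups, with males as squares to the left of females as circles, and a line at each group mean. A triangle at the lower edge stands for the WT control male with 0 CPM of Sult2a3, and the 3 WT control males lie under the 7 WT control females for Sult2a1 and above them for Ugt2b1.

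Genes that serve these enzymes were called lower in KI liver more often than higher. Over 7 lists, 75 genes were tested, and on control chow 6 were higher and 42 lower in KI, where 27.8% and 28.9% of all genes were. As 56.7% of all genes were called in either direction, the direction of these calls stood out more than their number. Of 13 genes that supply PAPS, 1 was higher and 7 lower (median -0.41): Slc35b3, a PAPS carrier of the Golgi, rose by 0.86 (SE 0.15), and Slc26a1, a sulfate transporter, Bpnt1, which clears the spent donor, and Suox, sulfite oxidase, fell by 0.85, 0.63 and 0.91. Of 8 genes of UDP-glucuronic acid supply, 2 were higher and 6 lower (median -0.46), among them Ugp2, which makes UDP-glucose, at -0.90 (SE 0.20) and Pgm2, a phosphoglucomutase, at -0.72 (SE 0.12). The 2 that rose were Pgm1 (1.12, SE 0.17), another phosphoglucomutase, and Uxs1 (0.67, SE 0.14), which consumes UDP-glucuronic acid. Transporters of conjugates showed the most one-sided count: of 11, 10 were lower (median -1.15), with Slco2b1 at -1.22 (SE 0.18), Slco1b2 at -1.34 (SE 0.22), the bile acid carrier Slc10a1 at -1.49 (SE 0.26) and the efflux pump Abcc3 at -0.76 (SE 0.11). Among 6 enzymes that remove conjugates, Gusb, the lysosomal beta-glucuronidase, rose by 0.76 (SE 0.11, adjusted p = 2.09e-06).

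Of 18 regulators of conjugating enzymes, 2 were higher and 10 lower in KI control (median -0.40). Ppara fell by 1.38 (SE 0.26), Nr1i3, the receptor CAR, by 1.56 (SE 0.38) and Rxra by 0.47 (SE 0.09). Of 15 genes of growth hormone action and sex pattern 9 were lower (median -0.90), with the growth hormone receptor Ghr at -1.40 (SE 0.19), Stat5a at -1.03 (SE 0.20) and the sex-dependent Elovl3 and Cyp2b9 at -5.36 (SE 1.01) and -7.97 (SE 1.66). Cyp2b9 stood at 0.357 to 5.47 CPM in KI control and 209 to 431 CPM in WT control. Of 4 genes set beside the families as a contrast (Ugt8a, Ugcg, Uggt1 and Dhdds), Ugcg was at 0.29 (SE 0.17, adjusted p = 0.143) and Dhdds at -0.12 (SE 0.10, adjusted p = 0.310).

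On the ASK1i diet the lists read alike, with 8 higher and 40 lower of 75, where 30.3% and 28.8% of all genes were, and 59.1% in either direction. PAPS supply had 2 higher and 7 lower, Papss2, the main liver PAPS synthase, falling by 1.5 (SE 0.17, adjusted p = 1.67e-08). UDP-glucuronic acid supply had 2 higher and 4 lower, transporters 10 lower of 11, regulators 9 lower of 18, growth hormone and sex pattern 1 higher and 9 lower of 15, and removal of conjugates 2 higher and 1 lower of 6, while Uggt1 was the 1 higher of the 4 contrast genes (0.50, SE 0.13). In WT 2 of the 75 rose on the inhibitor, where 1.13% of all genes rose. Ugdh, which makes UDP-glucuronic acid, had a mean of 162 ± 55.6 CPM (SD, n = 8) in WT ASK1i and 83.2 ± 10.7 CPM (n = 10) in WT control, a log2 fold change of 0.92 (SE 0.20, adjusted p = 0.0108). Abcc4, an efflux pump for sulfated and glucuronidated steroids, had 21.1 ± 5.94 and 10.5 ± 2.21 CPM in the same groups, a log2 fold change of 1.04 (SE 0.15, adjusted p = 0.000133). In KI liver 0 of the 75 were called by edgeR, with 13 at an unadjusted p under 0.05. Between the sexes in WT, 4 of the 75 were higher in males and 0 lower, where 0.951% and 0.904% of all genes were. They were Cyp4a12a (8.03, SE 1.02), Cyp2d9 (2.38, SE 0.37), Slco1a1 (6.58, SE 1.00) and Arsa (0.69, SE 0.19). In KI 0 were higher in males and 3 lower, where 0.0737% and 0.114% of all genes were. They were Cyp3a41a (-7.67, SE 1.41), Cyp2b9 (-5.29, SE 1.03) and Cyp2a4 (-6.75, SE 1.43). The sex difference was called as differing between the genotypes for 0 of the 75.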

How the data were processed

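Per the labels' protocols, the liver was fresh frozen, RNA came from a Qiagen miRNeasy preparation and libraries from a stranded TruSeq mRNA kit. CASAVA 1.8.2, STAR 2.4, RSEM 1.2.14 and the build mm10 are named in the submitters' processing notes. Settings and annotation: not given in the sources used here. What the authors deposited is a table of RSEM expected counts without normalisation; exactly whole numbers (tolerance 0, zeros included) made up 91.4% to 93.7% of a library's values, and RSEM splits a read between the genes it matches. The table counts gene starts from 0, and positions are given here from 1.

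Expected counts were rounded and fitted in R 4.3.3 with edgeR 4.0.16 (TMM, filterByExpr by group, quasi-likelihood F test, robust=TRUE) for all genes of the table, with group, sex and title set (numbered, or numbered with a P) over all 33 libraries. Sex effects were fitted within each genotype. Tests were two-sided, with Benjamini-Hochberg adjustment over the 14934 genes tested in each of 8 comparisons and a threshold of 0.05. Fits were tested on simulated data. CPM uses TMM-scaled library sizes, and SD is over libraries. Levels per kilobase use the mean length of GENCODE M21 transcripts. Alternatives included DESeq2 1.42.0 and limma 3.58.1 (voom). Nothing in the labels ties each library to its own animal; p-values then measure only the spread between libraries, which may be technical. Over 128 pairs of libraries of a group the lowest chi-square per gene was 28.7, above counting noise, so no such pair looked like the same library deposited again. Motif shares are over windows of equal length.

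The members and gene lists were chosen with earlier results of these data known. Library values are given for Sult1e1 and, per comparison, for the called members with the largest changes, at most 8, whose mean reached 1 CPM. From other lists up to 4 called genes with the smallest p are named. The rest are described by range. A regulator that the rule would name, and a motif planned for the promoters, are not reported here. Ugt1a1, Ugt2b5, Ugt2b38, Sult1a1 and the library values of the Sult2a cluster outside this rule were added after their values were seen.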

Additional observations from a re-analysis of the deposited data

Results flagged for a closer look

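Each member was examined in each of the 4 groups for a library whose gap to its nearest neighbour was large against the range of the group (Dixon's test at the 95% level). Of 124 groups of values 20 met this. The nominal rate of 1 in 20 is for independent, normally distributed values. Most of these groups pool the sexes, and many members share reads, so the 20 cannot be set against that rate. Of the 20, 12 were KI ASK1i replicate 5, 11 as the highest of its group and 1, Sult1e1, as the lowest. Sult1e1 stood at 30.4 CPM in that library, where the next was 233 CPM. On the high side it had 2.41 CPM of Sult1c2, 710 of Sult2a1, 539 of Sult2a2, 28.9 of Sult2a3, 3.08 of Sult2a7, 1197 of Ugt1a1, 172 of Ugt1a9, 272 of Ugt2a3, 168 of Ugt2b1, 551 of Ugt2b36 and 666 of Ugt2b5. All 12 lay outside the range of the other KI ASK1i libraries, but not all lay inside that of WT ASK1i. Sult2a2 and Sult2a7 stood above the highest WT ASK1i values, 405 and 2.46 CPM. Sult1c2, Ugt2a3 and Ugt2b1 stood below the lowest WT ASK1i values, 3.33, 331 and 181 CPM. Whether the label is wrong or the library differs for another reason was not tested, and the label was kept in the tests.

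The other 8 were spread over genes and groups. WT ASK1i replicate 2, a male, was the highest of its group at 494 CPM of Ugt2b1, 306 CPM of Ugt2b35 and 1.52 CPM of Ugt2b38. WT ASK1i replicate 1P had 288 CPM of Sult1d1, and replicate 2P had 309 CPM of Ugt1a5. KI control replicate 1, the only female of its group, had 22.9 CPM of Sult3a1. WT control replicate 5 had 3.22 CPM of Sult1e1, and WT control replicate 6 had 3.52 CPM of Sult2a7.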

How the results depend on the processing

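Over the members and comparisons, 11650 values were recomputed under other settings, and 0 called values changed sign. Of 2673 recomputed values of calls, 2531 stayed calls. Among values not called, 322 differed in sign. These totals include the fits that left out 1 library, which share nearly all their data with the main fit. The count for KI control against WT control was 24, and 12 among female libraries alone, with 1 KI female. The count for the inhibitor in WT was 3, and was 1 with the L code as a term, 1 among numbered titles alone, 0 among male and 1 among female libraries alone. Over all genes the calls went from 209 to 23, 19, 0 and 8 in the same order. For the interaction of genotype and diet it was 0, and 1 by DESeq2, with 0 and 16 calls over all genes. For sex in KI it was 1, and 0 by limma-voom and among ASK1i libraries alone, with 28, 11 and 7 calls over all genes. For sex in WT it was 3, and 5 by limma-voom, 1 with the L code, and 0 with a replicate block, among numbered titles alone and among ASK1i libraries alone. Over all genes the calls went from 277 to 247, 72, 71, 42 and 5 in the same order. The cause was not tested, beyond the fewer libraries in each subset. Leaving out each library in turn gave 22 to 24 calls for KI control against WT control, 22 to 26 for KI ASK1i against WT ASK1i, 0 to 0 for the inhibitor in KI, 2 to 4 for the inhibitor in WT, 0 to 1 for the interaction (1 without WT control replicate 5), 0 to 1 for sex in KI (0 without KI control replicate 1), 1 to 4 for sex in WT (1 without WT control replicate 8, 1P or 2P, or WT ASK1i replicate 2 or 1P) and 0 to 0 for genotype and sex. Over 35 pairs of same-numbered libraries the correlation of deviations ran from -0.264 to 0.422, with a median of -7e-04 and 7 over 0.1. Pairs with different numbers were not compared, so these values cannot decide whether the replicate number pairs libraries. With the replicate number as a block the counts were 24, 23, 0, 2, 0, 1, 0 and 0 in the order just given. Alternatives with a header prefix, with female libraries alone, and with sex within genotype leaving out KI ASK1i replicate 5 were added once the data had been seen. Low members such as Ugt2b38, Sult2a7 and Sult1c2 rest on few counts per library, and intervals of any kind cover counting and library spread only.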
